A study of Rattus norvegicus with 69 samples.

Results

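Across the rat hippocampal CA1 arrays, 7 subunit genes of the GABA-A receptor were followed, namely Gabra2, Gabra3, Gabra4, Gabra5, Gabrb1, Gabrb2 and Gabrd. They were taken as every probe set that the array annotation assigns to one of these symbols, which gave 12 probe sets of 7 genes among the 8740 probe sets that are not controls (4737 genes with a symbol of their own). Each probe set, a group of short probes against one transcript, was kept separate. Gabra2 and Gabrb1 have 1 probe set each and the other 5 genes have 2.

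The 69 arrays each held CA1 RNA of one male Fischer 344 rat aged 3 to 5 months, in 2 cohorts. Sleep-deprived rats (24SD and 72SD, deprived for 24 or 72 hours) were kept in cage-mate pairs on platforms surrounded by water, NES rats (24NES and 72NES) spent the same durations in unfamiliar surroundings as a stress control and could sleep there, and home cage rats (HC) were the controls. Cohort 1 held 8 24SD, 8 72SD, 10 24NES, 6 72NES and 5 HC arrays, and cohort 2 held 8 24SD, 12 72SD and 12 HC arrays, so that every NES array lies in cohort 1. According to the methods, the HC and SD rats of cohort 1 had also been trained in an avoidance task, and NES rats are not named among those trained. Which SD rats shared a chamber is not in the labels, so paired rats entered the tests as separate animals. Levels are log2 of the MAS5 signal, the array software's scaled intensity, and a difference of 1 on this scale is a doubling.

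GABA-A receptors are chloride channels built from several subunits around a pore, and they carry most fast inhibition in the brain. GABA binds where a beta subunit meets an alpha subunit, and the alpha subunit decides much of how the receptor responds to benzodiazepines, the sedative drugs. Receptors with the alpha5 subunit are abundant in the CA1 region and carry much of its tonic, extrasynaptic inhibition, while alpha4 and delta subunits combine in extrasynaptic receptors best known from dentate granule cells and thalamus.

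In the GRCr8 rat genome, Gabrb1, Gabra4 and Gabra2 lie close together on chromosome 14, Gabra5 lies on chromosome 1, Gabrb2 beside Gabra6 on chromosome 10, Gabra3 on the X chromosome and Gabrd on chromosome 5. RefSeq promoter sequences, 250 bases before to 50 after the gene's start, matched 6 of the 7 genes. The start used for Gabrb1, Gabrb2 and Gabra5 lies inside the gene's annotated span. The promoters of both beta subunits are shown first, since they share a 10-base palindrome. Those of Gabra4 and Gabrd are shown because the brightest probe sets of these genes varied together from array to array. Capitals mark the palindrome (GCGCA followed by its reverse complement, the NRF1 motif) in the beta genes and the GC box (GGGCGG on either strand) in the other pair. The regions are chr14:36902844-36903143 (minus strand) for Gabrb1, chr10:27439543-27439842 (plus strand) for Gabrb2, chr14:36944497-36944796 (plus strand) for Gabra4 and chr5:171252660-171252959 (minus strand) for Gabrd, all GRCr8.
Gabrb1 promoter: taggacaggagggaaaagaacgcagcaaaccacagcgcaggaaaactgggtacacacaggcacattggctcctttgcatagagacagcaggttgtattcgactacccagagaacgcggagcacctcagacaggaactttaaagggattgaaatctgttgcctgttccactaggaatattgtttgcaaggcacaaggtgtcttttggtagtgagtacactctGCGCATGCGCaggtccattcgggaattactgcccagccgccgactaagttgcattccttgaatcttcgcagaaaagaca
Gabrb2 promoter: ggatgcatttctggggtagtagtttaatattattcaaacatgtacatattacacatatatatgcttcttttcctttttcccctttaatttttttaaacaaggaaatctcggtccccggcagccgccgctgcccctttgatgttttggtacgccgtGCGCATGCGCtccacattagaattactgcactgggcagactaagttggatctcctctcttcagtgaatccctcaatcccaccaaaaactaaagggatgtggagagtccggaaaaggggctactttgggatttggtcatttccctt
Gabra4 promoter: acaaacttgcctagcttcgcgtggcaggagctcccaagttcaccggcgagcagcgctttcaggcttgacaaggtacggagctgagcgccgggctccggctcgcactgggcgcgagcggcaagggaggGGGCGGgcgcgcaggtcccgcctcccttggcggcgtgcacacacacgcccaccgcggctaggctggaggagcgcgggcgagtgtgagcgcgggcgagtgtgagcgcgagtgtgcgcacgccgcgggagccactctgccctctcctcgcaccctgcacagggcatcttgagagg
Gabrd promoter: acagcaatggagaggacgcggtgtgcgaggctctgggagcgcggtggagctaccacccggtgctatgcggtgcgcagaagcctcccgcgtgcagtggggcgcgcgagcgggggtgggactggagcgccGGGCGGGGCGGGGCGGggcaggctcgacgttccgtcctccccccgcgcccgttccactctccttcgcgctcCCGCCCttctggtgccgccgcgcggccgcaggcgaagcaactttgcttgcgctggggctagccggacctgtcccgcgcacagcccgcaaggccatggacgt

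The NRF1 palindrome was in 0.852% of the 33469 rat promoters in the table. Within the 300 bases it began 29 bases before the start in Gabrb1 and 95 bases before it in Gabrb2, and neither had a GC box. GC boxes were in 33.1% of promoters and in those of Gabra4 (1), Gabra5 (1) and Gabrd (4, of which 3 overlap). A further 3 motifs, the E-box CACGTG (6.42% of promoters), the cAMP response element TGACGTCA (1.83%) and the EGR site GCGTGGGCG (0.544%), were found in none of the 6, and neither was the glucocorticoid response element (AGAACA, NNN, then TGTTCT, 0.0149%). GC content was 70.7% in Gabra4, 73.7% in Gabrd, 76.3% in Gabra5, 49.3% in Gabrb1, 44% in Gabrb2 and 39.3% in Gabra3, with a median of 51.7% over all promoters.

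Each array was scaled to the same trimmed mean, so levels are relative within an array and their number limits the precision. Median signals were between 404 and 488, and the 3-prime to 5-prime ratio of the GAPDH control, a sign of RNA quality, was between 0.916 and 1.26. The highest ratio was on array 71, a 72NES array. Of the marker genes for CA1 and other pyramidal neurons, 4 of 8 were measured and 3 of them lay above the median probe set of the array in mean level. Interneuron markers (11 of 12 measured, 10 above that median) and dentate granule cell markers (5 of 8 measured, 4 above it) gave signals too, and no marker signal was 0. In such bulk tissue, fewer cells of a type and less RNA per cell cannot be told apart.

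All 12 probe sets gave a signal above 0 on all 69 arrays. Of these, 8 (Gabra2, Gabrb1, both of Gabra5, both of Gabrd and 1 each of Gabra4 and Gabrb2) lay above the median probe set of the array in mean level and 4 below it (both of Gabra3 and the second ones of Gabra4 and Gabrb2). A signal above 0 does not show detection, since only 45 values of all probe sets and arrays were 0. No detection calls were given, so whether the 4 probe sets below the median were above background was not tested. Levels of different probe sets are not comparable with each other, and each is compared across groups below.

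None of the 12 probe sets passed the test of sleep deprivation against home cage after adjustment over all probe sets (limma F-test with cohort in the model, 53 arrays). Over the whole array 0.114% passed. At an unadjusted p under 0.05 there were 3 of 12, both probe sets of Gabra3 and that of Gabrb1, against 10.3% of all probe sets. At 24 hours no member passed (0.206% of all probe sets did) and 3 of 12 were below 0.05 unadjusted (14.8% of all). At 72 hours again none passed (0.0229% of all) and 2 of 12 were below 0.05 unadjusted (7.16% of all). No member passed the test of 72SD against 24SD after adjustment or was below 0.05 before it, beside 0% and 4.11% of all probe sets. The median log2 change over the 12 probe sets was -0.02 at 24 hours and 0.06 at 72 hours, beside -0.03 and -0.01 over all 8740. The same HC arrays serve both durations, so the 24SD and 72SD values are not independent of each other.

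**Figure D1:**
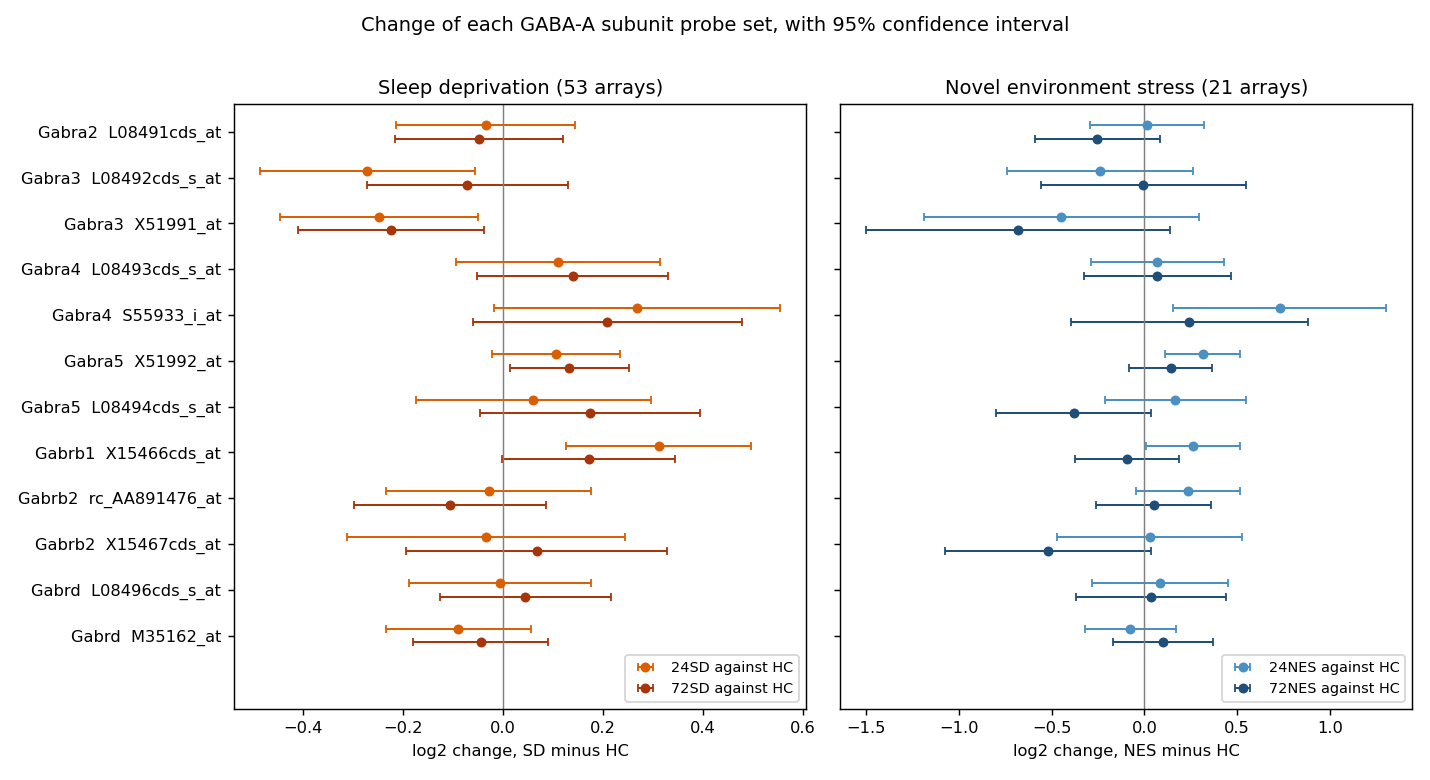
Log2 change of each of the 12 probe sets (rows) in 24SD and 72SD (left, 53 arrays, cohort in the model) and in 24NES and 72NES (right, 21 arrays of cohort 1), each minus HC, with 95% confidence intervals. The intervals that leave out 0 are those of both Gabra3 probe sets and Gabrb1 at 24SD, one of Gabra3 and one of Gabra5 at 72SD, and one each of Gabra4, Gabra5 and Gabrb1 at 24NES.

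Among the alpha subunits, Gabra3 had the lowest values relative to HC. Alpha3 receptors are best known from thalamic reticular and monoaminergic neurons. For probe set X51991_at, log2 signals in cohort 2 ran from 7.53 through a median of 7.96 to 8.25 in 24SD and from 7.83 through 8.10 to 8.51 in 72SD, against 7.51, 8.36 and 8.58 in HC. In cohort 1 they ran from 7.16 through 7.75 to 8.15 in 24SD and from 7.16 through 7.60 to 8.30 in 72SD, against 7.93, 8.11, 7.62, 8.08 and 7.85 in the 5 HC arrays. All 8 of the 24SD arrays of cohort 2 lay below the mean of their HC arrays and 6 of 8 did in cohort 1, but the groups overlapped in each case. The change was -0.25 ± 0.10 (SE) at 24SD (p = 0.0151, adjusted p = 0.222, limma) and -0.22 ± 0.09 at 72SD (p = 0.0191, adjusted p = 0.596, limma). Within cohort 1 alone these were -0.23 ± 0.19 and -0.32 ± 0.19, and within cohort 2 alone -0.29 ± 0.11 and -0.17 ± 0.10.

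The adjusted outcome for this probe set depends on how extreme arrays are treated. The ANOVA of the methods was rerun with p-values adjusted over all 8740 probe sets. Signals were standardized within cohort, and values over 2 SD from their group mean were removed. Of the 53 values of this probe set 2 were removed, and its adjusted p was 0.0269 (ANOVA). In that test 1.97% of all probe sets passed. With no value removed, the same ANOVA gave an adjusted p of 0.323.

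The second Gabra3 probe set, L08492cds_s_at, averaged 8.29 ± 0.36 in 24SD and 8.48 ± 0.30 in 72SD of cohort 1 (SD, 8 arrays each), against 8.56 ± 0.51 in HC (5 arrays). In cohort 2 it averaged 8.67 ± 0.28 in 24SD (8 arrays) and 8.88 ± 0.25 in 72SD (12 arrays), against 8.95 ± 0.25 in HC (12 arrays). Its change was -0.27 ± 0.11 (SE) at 24SD (p = 0.0143, adjusted p = 0.218, limma) and -0.07 ± 0.10 at 72SD (adjusted p = 0.891, limma). The lower value at 24 hours had almost the same size in both cohorts, -0.27 ± 0.21 in cohort 1 and -0.27 ± 0.12 in cohort 2. General neuronal markers also had mostly lower values in SD, with none of 10 probe sets higher at 24SD (median -0.13, 3 below 0.05 unadjusted) and 1 of 10 higher at 72SD (median -0.10, 2 lower and below 0.05 unadjusted), none of them past the adjusted test, and their part in the Gabra3 values was not tested. Of all probe sets, 42.8% were higher at 24SD and 45.5% at 72SD. The 2 probe sets of Gabra3 thus had similar values at 24 hours, but from array to array their correlation did not pass (r = -0.15 over 69 arrays, rho = -0.06, adjusted permutation p = 0.269 for r), with r = -0.26 within cohort 1 and 0.29 within cohort 2.

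Gabra5 encodes the alpha5 subunit. For X51992_at, cohort 1 signals ran from 11.79 through a median of 12.04 to 12.18 in 24SD and from 11.89 through 12.08 to 12.23 in 72SD, against 11.61, 11.86, 12.04, 11.40 and 11.71 in HC. All 16 SD arrays lay above the HC mean and 9 of them above the highest HC array. In cohort 2 the signals ran from 11.46 through 11.72 to 11.93 in 24SD and from 11.52 through 11.71 to 12.10 in 72SD, against 11.44, 11.70 and 12.03 in HC, so that there the 3 groups had the same middle and overlapped throughout. Within cohort 1 the change was 0.29 ± 0.10 (SE) at 24SD (adjusted p = 0.277, limma) and 0.35 ± 0.10 at 72SD (adjusted p = 0.258, limma), and within cohort 2 it was 0.01 ± 0.08 and 0.03 ± 0.07. Over both cohorts it was 0.11 ± 0.06 and 0.13 ± 0.06 (adjusted p = 0.429 and 0.635, limma).

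The test that the SD changes differ between cohorts gave p = 0.0215 for this probe set, the only one of 12 below 0.05, and an adjusted p of 0.628 (limma F-test). Of all probe sets, 6.76% were below 0.05 in that test and 0.0343% passed after adjustment. The other Gabra5 probe set, L08494cds_s_at, changed by 0.06 ± 0.12 at 24SD and 0.17 ± 0.11 at 72SD (adjusted p = 0.853 and 0.742, limma), with values of 0.05 and 0.11 in cohort 1 and 0.05 and 0.21 in cohort 2. Over all probe sets, 42.8% were higher at 24SD and 45.5% at 72SD. Of the 6 CA1 and pyramidal probe sets, 1 was higher at 24SD (median -0.11) and 1 at 72SD (median -0.04). Of the 10 general neuronal probe sets, 0 were higher at 24SD (median -0.13) and 1 at 72SD (median -0.10). None of these passed the adjusted test. Of the 8 dentate granule cell probe sets, 3 were higher at 24SD (median -0.03) and 7 at 72SD (median 0.11) over both cohorts, and none passed the adjusted test. In cohort 1 their summed signal over 5 genes ran from 7058 through a median of 7591 to 8093 in 24SD and from 5845 through 7571 to 8836 in 72SD, against 5348, 6004 and 7230 in HC. In cohort 2 it ran from 7142 through 9399 to 11200 in 24SD and from 6782 through 8521 to 10100 in 72SD, against 5633, 8714 and 10330 in HC, and the part of these markers in the Gabra5 values was not tested.

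Gabra4, the alpha subunit that pairs with delta outside the synapse, was somewhat higher on both of its probe sets, without passing the test. S55933_i_at changed by 0.27 ± 0.14 (SE) at 24SD and 0.21 ± 0.13 at 72SD (adjusted p = 0.371 and 0.742, limma), and L08493cds_s_at by 0.11 ± 0.10 and 0.14 ± 0.10 (adjusted p = 0.651 and 0.749, limma). For S55933_i_at the 24SD arrays of cohort 1 ran from 7.95 through 8.27 to 8.77 and the 72SD arrays from 7.81 through 8.28 to 8.88, against 8.16, 7.68, 7.41, 7.81 and 8.20 in HC. Of these 16 SD arrays, 15 lay above the HC mean, while the group ranges overlapped. Within cohort 1 its change was 0.49 ± 0.20 and 0.50 ± 0.20, and within cohort 2 it was 0.17 ± 0.19 and 0.06 ± 0.17. The marker values given for Gabra5 apply to Gabra4 as well, and their part in its values was not tested. Gabra2, whose alpha2 subunit is found at the axon initial segment of pyramidal cells, changed by -0.04 ± 0.09 and -0.05 ± 0.08 (adjusted p = 0.890 and 0.915, limma). The 95% interval of its 24SD change ran from -0.21 to 0.14.

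Gabrb1, which encodes the beta1 subunit, had the smallest p of the 12 in the SD test (p = 0.00549, adjusted p = 0.275, limma F-test). In cohort 1 its signals ran from 11.89 through a median of 12.05 to 12.33 in 24SD and from 11.72 through 11.85 to 12.12 in 72SD, against 11.63, 11.68, 11.56, 11.61 and 12.12 in HC. In cohort 2 they ran from 11.85 through 11.96 to 12.45 in 24SD and from 11.45 through 12.00 to 12.21 in 72SD, against 11.14, 11.75 and 12.24 in HC. All 16 of the 24SD arrays and 17 of the 20 72SD arrays lay above the HC mean of their cohort. The ranges still overlapped, since single HC arrays reached into the SD range and the HC arrays of cohort 2 were widely spread (SD 0.40, against 0.21 in 24SD).

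The change of Gabrb1 was 0.31 ± 0.09 (SE) at 24SD (adjusted p = 0.104, limma) and 0.17 ± 0.09 at 72SD (adjusted p = 0.697, limma). Both cohorts gave similar values, 0.34 ± 0.10 in cohort 1 and 0.29 ± 0.14 in cohort 2 at 24SD, and 0.16 ± 0.10 and 0.18 ± 0.13 at 72SD. One HC array of cohort 1, subject 5, was at 12.12 while the other 4 were between 11.56 and 11.68. Without it the 24SD change was 0.34 (adjusted p = 0.0706, limma) and the 72SD change 0.20 (adjusted p = 0.598, limma). The dentate granule cell marker sums given for Gabra5 apply here as well, and their part in the Gabrb1 values was not tested. Of the CA1 and pyramidal probe sets 1 of 6 was higher at 24SD (median -0.11) and 1 of 6 at 72SD (median -0.04). For interneurons it was 4 and 5 of 15 (medians -0.05 and -0.03), and for astrocytes 10 and 11 of 19 (medians 0.001 and 0.06). The part of these markers was not tested either.

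**Figure D2:**
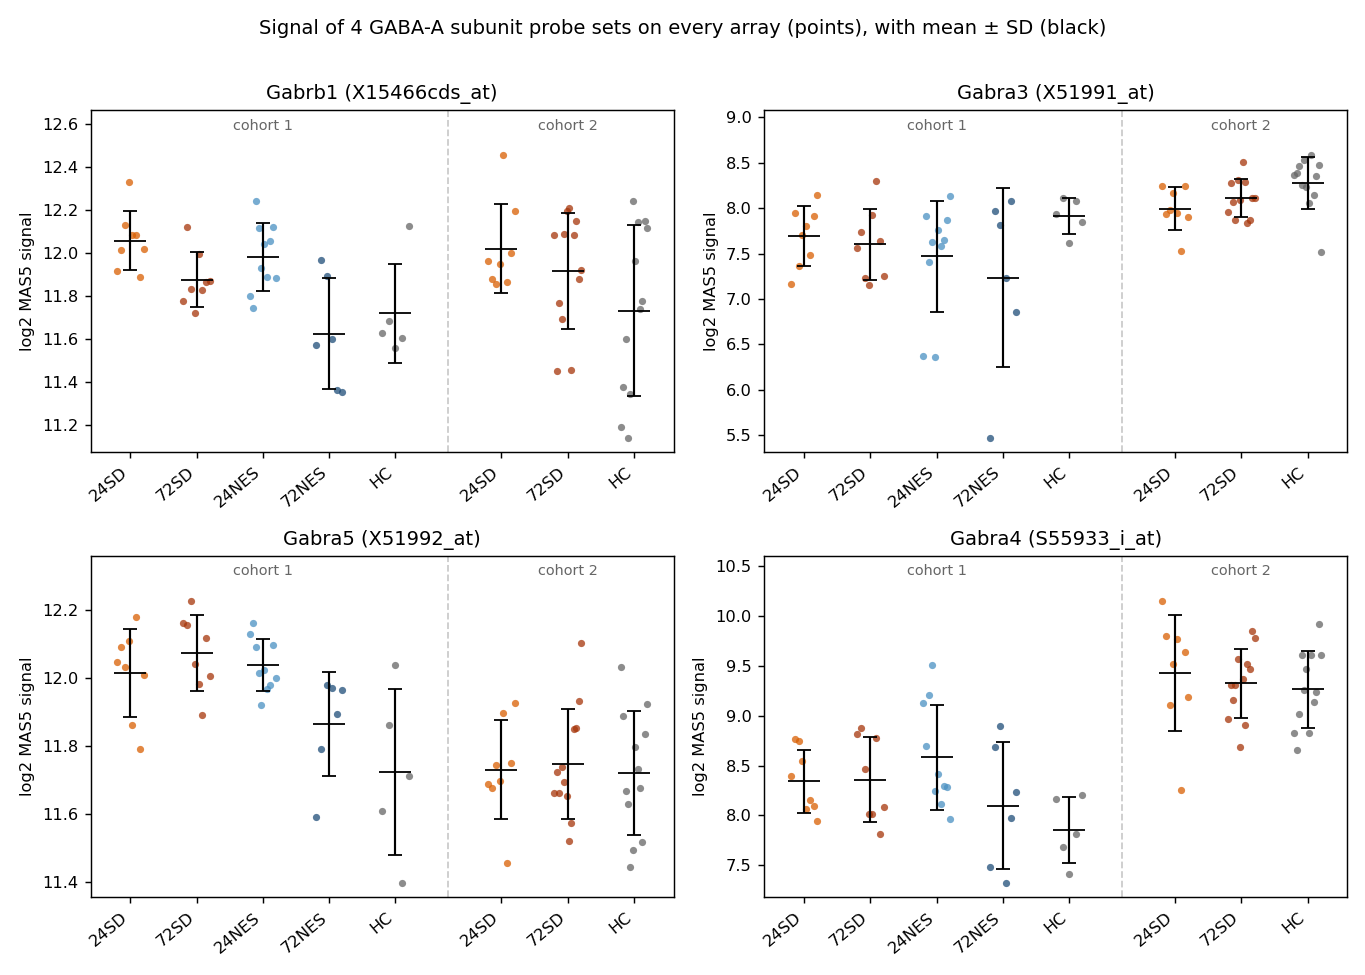
Log2 MAS5 signal on every array (points) of Gabrb1, Gabra3 (X51991_at), Gabra5 (X51992_at) and Gabra4 (S55933_i_at) in the 8 group by cohort sets, with mean ± SD in black and a dashed line between the cohorts. All 24SD points of Gabrb1 lie above the HC mean of their cohort, Gabra5 lies above the HC mean in 24SD and 72SD of cohort 1 and level with it in cohort 2, and Gabra4 sits about 1 unit higher in cohort 2.

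For the beta2 gene Gabrb2, the brighter probe set rc_AA891476_at changed by -0.03 ± 0.10 (SE) at 24SD and -0.11 ± 0.10 at 72SD, and X15467cds_at by -0.03 ± 0.14 and 0.07 ± 0.13. The smallest adjusted p of these 4 values was 0.834 (limma). The cohort 1 and cohort 2 values of rc_AA891476_at at 24SD had opposite signs, 0.12 ± 0.09 and -0.13 ± 0.16. For Gabrd, the delta subunit of extrasynaptic receptors, L08496cds_s_at changed by -0.01 ± 0.09 and 0.04 ± 0.09 and M35162_at by -0.09 ± 0.07 and -0.04 ± 0.07, with adjusted p of 0.589 or more (limma). The 95% intervals for M35162_at ran from -0.23 to 0.06 at 24SD and from -0.18 to 0.09 at 72SD. In cohort 1, L08496cds_s_at averaged 10.26 ± 0.19 in 24SD and 10.42 ± 0.26 in 72SD (SD, 8 arrays each), against 10.33 ± 0.48 in HC (5 arrays).

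The NES arrays were set against HC to ask which of these values go with the changed surroundings. The HC rats of that comparison had been trained in the avoidance task, while NES rats are not named among those trained. As far as stated, changed surroundings and lack of training thus cannot be told apart in the NES changes. No member passed the NES test after adjustment, and 0% of all probe sets did (limma F-test, 21 arrays). Of the 12, 4 were below 0.05 unadjusted, Gabrb1, both Gabra5 probe sets and S55933_i_at of Gabra4, against 8.63% of all probe sets. At 24NES none passed (0.0114% of all did), and 3 of 12 were below 0.05 unadjusted (10.7% of all). All 3 were higher than HC, in the direction that 6.67% of all probe sets took. At 72NES no member passed or was below 0.05 unadjusted, beside 0% and 5.03% of all probe sets. The NES tests use the 5 HC arrays that also serve the SD tests, so the values are set side by side here without a test of their likeness.

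S55933_i_at of Gabra4 had the largest NES value, 0.73 ± 0.28 (SE) at 24NES (adjusted p = 0.337, limma), next to 0.49 ± 0.20 at 24SD within cohort 1. Its 10 24NES arrays ran from 7.96 through a median of 8.35 to 9.51, all above the HC mean of 7.85, and 8 of them lay above the highest HC array. At 72NES the 6 arrays ran from 7.32 through 8.10 to 8.90, and the change was 0.24 ± 0.31. The other Gabra4 probe set, L08493cds_s_at, changed by 0.07 ± 0.17 at 24NES and 0.07 ± 0.19 at 72NES (adjusted p = 0.918 and 0.9925, limma). For X51992_at of Gabra5 the 24NES arrays ran from 11.92 through 12.02 to 12.16, again all 10 above the HC mean, with a change of 0.32 ± 0.10 (adjusted p = 0.222, limma). At 72NES they ran from 11.59 through 11.93 to 11.98, with a change of 0.14 ± 0.11. The other Gabra5 probe set, L08494cds_s_at, had the opposite sign at 72NES. It changed by 0.17 ± 0.18 at 24NES and -0.38 ± 0.20 at 72NES (adjusted p = 0.790 and 0.968, limma). Gabrb1 ran from 11.74 through 11.98 to 12.24 at 24NES and from 11.35 through 11.59 to 11.97 at 72NES, with changes of 0.26 ± 0.12 and -0.10 ± 0.13 (adjusted p = 0.443 and 0.987, limma). The dentate granule cell marker sum was 6073, 7330 and 10350 (lowest, median and highest) at 24NES and 6201, 6897 and 7632 at 72NES, and its part was not tested here either.

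Gabra3 X51991_at was low in both NES groups but widely spread. The 24NES arrays ran from 6.36 through a median of 7.64 to 8.13 and the 72NES arrays from 5.47 through 7.52 to 8.08, and the changes were -0.45 ± 0.36 (SE) and -0.68 ± 0.39 (adjusted p = 0.687 and 0.968, limma). Its lowest signals were 44.4 on 72NES array 68 and 82.4 and 83.0 on 24NES arrays 62 and 58. The other Gabra3 probe set, L08492cds_s_at, changed by -0.24 ± 0.24 at 24NES (adjusted p = 0.771, limma) and -0.005 ± 0.27 at 72NES. Array 68 was its highest 72NES array, at 8.91. X15467cds_at of Gabrb2 was below the HC mean on all 6 72NES arrays (-0.52 ± 0.27, adjusted p = 0.968, limma), where its signals ran from 6.86 through 7.73 to 8.06, against 7.78, 7.93, 8.36, 8.47 and 8.43 in HC. The lowest of these was array 71. The other Gabrb2 probe set, rc_AA891476_at, changed by 0.24 ± 0.13 at 24NES and 0.05 ± 0.15 at 72NES (adjusted p = 0.555 and 0.9925, limma). Remaining were Gabra2, both Gabrd probe sets and X15467cds_at at 24NES. Their NES changes lay between -0.25 and 0.10, none with an adjusted p under 0.855 (limma).

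Set against NES directly, within cohort 1, no member passed between 24SD and 24NES after adjustment or was below 0.05 before it, beside 0.0114% and 5.97% of all probe sets. Between 72SD and 72NES none passed after adjustment (0% of all), and 4 of 12 were below 0.05 unadjusted (6.69% of all). These 4, Gabra2, Gabrb1 and both Gabra5 probe sets, were all higher in 72SD, a direction in which 3.9% of all probe sets were below 0.05. Over the 12 probe sets the median difference was 0.24, beside -0.01 over all 8740.

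Gabra2 ran from 10.69 through a median of 11.29 to 11.67 in 72SD, against 10.32, 10.99 and 11.19 in 72NES, and 6 of the 8 72SD arrays lay above the highest 72NES array. The difference was 0.39 ± 0.14 (SE, adjusted p = 0.699, limma). Without array 71 it was 0.27 (adjusted p = 0.987, limma). For X51992_at of Gabra5, 7 of the 8 72SD arrays lay above the highest 72NES array, and the difference was 0.21 ± 0.08 (adjusted p = 0.725, limma). L08494cds_s_at of the same gene ran from 9.46 through 9.76 to 10.61 in 72SD, against 9.08, 9.34 and 9.78 in 72NES, a difference of 0.49 ± 0.18 (adjusted p = 0.699, limma). Relative to HC of cohort 1, this probe set was at 0.11 ± 0.18 in 72SD and -0.38 ± 0.20 in 72NES. Gabrb1 differed by 0.25 ± 0.10 (adjusted p = 0.726, limma).

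The cell type markers did not move one way between 72SD and 72NES, and none of them passed the adjusted test. Of the 19 probe sets for astrocyte markers, 6 were higher at an unadjusted p under 0.05 and none lower, with a median of 0.23, and of the 10 for general neuronal markers 3 were higher and none lower, with a median of 0.17. Their summed signals were 87530, 100600 and 106300 (lowest, median and highest) in 72SD, against 87400, 93310 and 110900 in 72NES, for astrocytes, and 86750, 94380 and 96340 in 72SD, against 83050, 86260 and 92640 in 72NES, for neurons. Of the 15 interneuron probe sets 2 were higher and 2 lower (median -0.02), and the medians were 0.09 for dentate granule cells, 0.08 for CA1 and pyramidal neurons, 0.04 for oligodendrocytes, -0.05 for microglia, -0.12 for choroid plexus and meninges and -0.15 for blood. Their part in the subunit values was not tested. In cohort 1 the training of SD but not, as far as stated, NES rats cannot be told apart from the loss of sleep. The methods mention that training left no noticeable trace in the array measures, which was not tested here.

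**Figure D3:**
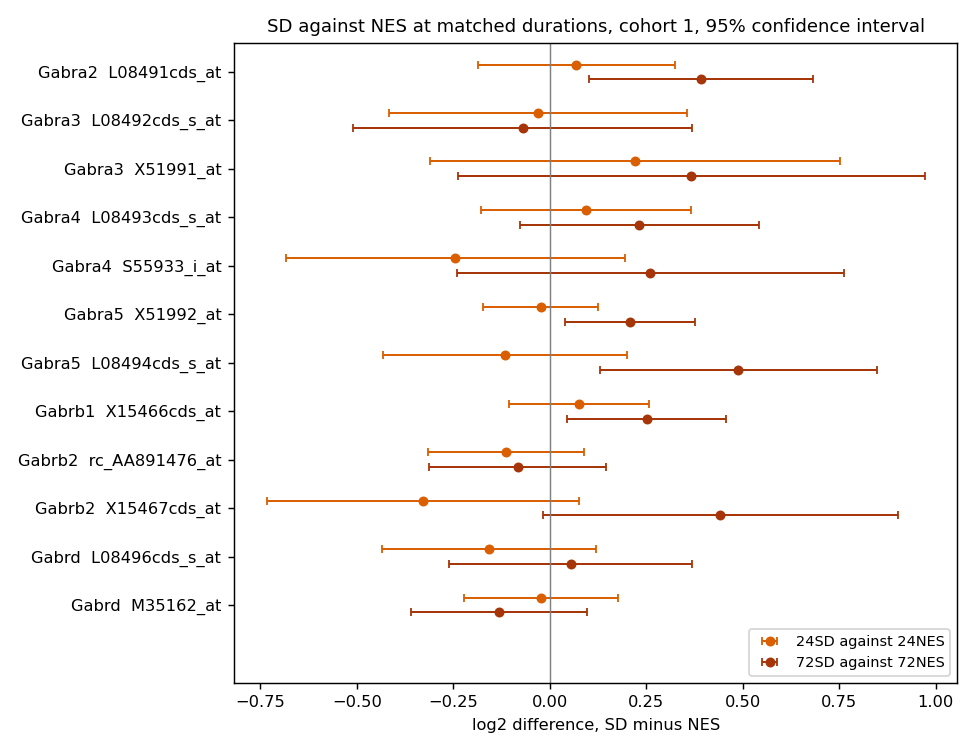
Log2 difference, SD minus NES, of the 12 probe sets (rows) at matched durations within cohort 1, with 95% confidence intervals. At 24 hours every interval spans 0, and at 72 hours those of Gabra2, Gabrb1 and both Gabra5 probe sets lie above 0.

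Between the cohorts the subunits differed about as often as the array as a whole. Cohort 2 minus cohort 1, with treatment in the model, passed the adjusted test for 7 of 12 probe sets, beside 50.4% of all probe sets. Of these, 5 were higher and 2 lower in cohort 2, beside 22% and 28.4% of all. S55933_i_at of Gabra4 was 1.13 ± 0.12 higher (SE, adjusted p = 9.75e-12, limma) and rc_AA891476_at of Gabrb2 0.67 ± 0.08 higher (adjusted p = 2.23e-09, limma). Both Gabra3 probe sets were higher in cohort 2, by 0.40 ± 0.08 and 0.39 ± 0.09, as was M35162_at of Gabrd, by 0.28 ± 0.06. Gabra2 was lower by 0.41 ± 0.07 (-0.41, adjusted p = 4.83e-06, limma) and X51992_at of Gabra5 by 0.22 ± 0.05 (-0.22). The HC arrays of X51992_at averaged 11.72 in both cohorts, from 5 arrays in cohort 1 and 12 in cohort 2. Its SD arrays averaged 12.01 (24SD) and 12.07 (72SD) in cohort 1, against 11.73 and 11.75 in cohort 2. The test that its SD changes differ between cohorts did not pass (adjusted p = 0.628, limma F-test). For Gabrb1 the difference was 0.01 ± 0.07. Summed general neuronal markers were lower in cohort 2, with medians of 72650 in 24SD, 77460 in 72SD and 83270 in HC, against 92350, 94380 and 94790 in cohort 1, and their part was not tested. The submitters also describe weaker background signal in cohort 2, and background, training and the rats themselves cannot be told apart between cohorts.

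**Figure D4:**
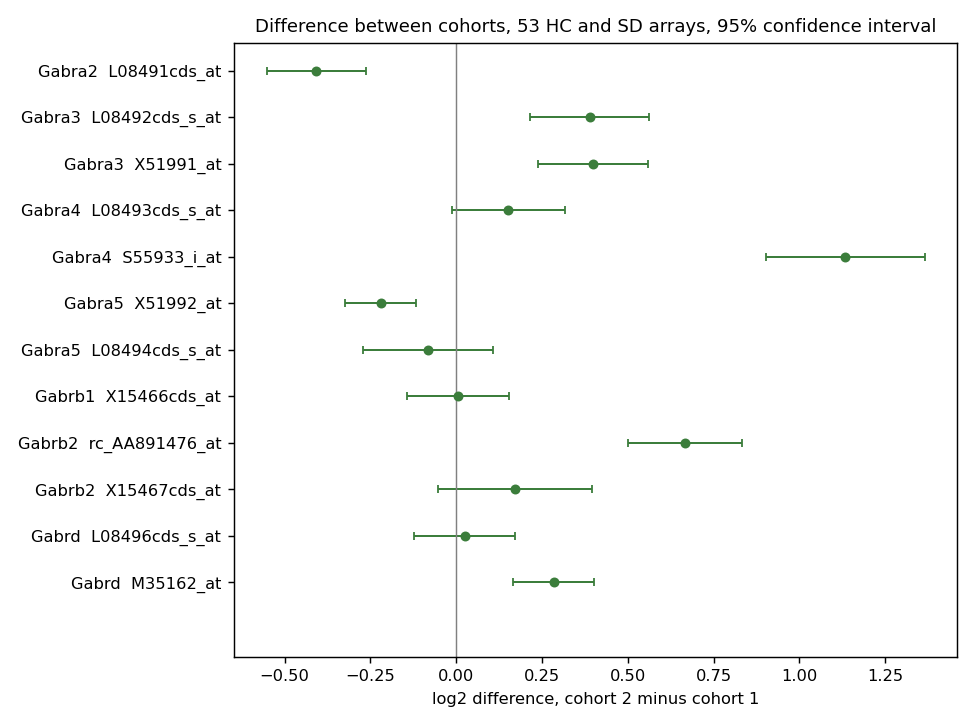
Log2 difference, cohort 2 minus cohort 1, of the 12 probe sets (rows) over the 53 HC and SD arrays with treatment in the model, with 95% confidence intervals. The 2 probe sets of Gabra4, of Gabrb2 and of Gabrd stand apart from each other, at 1.13 and 0.15, 0.67 and 0.17, and 0.28 and 0.02, while those of Gabra3 coincide.

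The 2 probe sets of a gene did not always give the same cohort difference. The difference between them was tested by permutation within treatment groups, with p-values adjusted over 10 such tests, a test chosen after the values had been seen. For Gabra4, L08493cds_s_at minus S55933_i_at was lower in cohort 2 by 0.99 (-0.99, adjusted permutation p = 0.0001), for Gabrd, L08496cds_s_at minus M35162_at by 0.25 (-0.25, adjusted permutation p = 0.00075), and for Gabrb2, rc_AA891476_at minus X15467cds_at was higher by 0.51 (adjusted permutation p = 0.00113). For Gabra3 and Gabra5 the adjusted permutation p was 0.987 and 0.384. For the SD change the difference between probe sets passed for none of the 5 genes, with values between -0.15 and 0.08 and adjusted permutation p-values of 0.384 or more.

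Ordered by mean level, the 8 group by cohort sets were close neighbours. For each probe set at most 1 of the 7 steps between neighbours was larger than the smaller SD of the 2 sets. Gabrb1 was highest in 24SD of both cohorts (12.06 and 12.02), followed by 24NES (11.98), 72SD of cohort 2 (11.91) and of cohort 1 (11.87), HC of cohort 2 (11.73) and of cohort 1 (11.72) and 72NES (11.62), and only the step below 72SD of cohort 1 exceeded that spread. X51992_at of Gabra5 was highest in 72SD, 24NES and 24SD of cohort 1 (12.07, 12.04 and 12.01), and the step from there to 72NES (11.86) exceeded it. For S55933_i_at of Gabra4 the step that exceeded it separated the 3 sets of cohort 2 (9.43, 9.32 and 9.26) from the 5 of cohort 1 (8.58 and below), and for rc_AA891476_at of Gabrb2 it lay between cohort 2 (12.87 and above) and cohort 1 (12.45 and below). L08496cds_s_at of Gabrd was flattest, with all 8 means between 10.26 and 10.42.

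How the subunits vary among themselves was measured over the 69 arrays, as deviations from each set's mean and with the brightest probe set of each gene. Of the 21 pairs, 6 had an adjusted permutation p under 0.05 for Pearson's r, and all 6 also for Spearman's rho. Gabra2 with Gabra3 (r = 0.29, rho = 0.34, adjusted permutation p = 0.0518 and 0.0164) and Gabrb2 with Gabrd (r = -0.24, rho = -0.32, adjusted permutation p = 0.115 and 0.0213) passed by rho alone. Gabra4 and Gabrd had the highest correlation (r = 0.58, rho = 0.52, adjusted permutation p = 0.00021 and 0.00042), with r = 0.54 within cohort 1, 0.63 within cohort 2 and 0.53 without the 2 arrays farthest from the median of Gabra4. Gabra2 and Gabra4 followed (r = 0.44, rho = 0.34, adjusted permutation p = 0.00147 and 0.0164), with 0.26 within cohort 1, 0.63 within cohort 2 and 0.38 without the 2 farthest arrays. As a background, the r of Gabra4 with all other probe sets had a median of 0.06, and 95% of them were under 0.34.

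Gabra3 correlated with Gabrd (r = 0.31, rho = 0.38, adjusted permutation p = 0.0393 and 0.00924) and with Gabra4 (r = 0.30, rho = 0.32, adjusted permutation p = 0.0393 and 0.0213). Without the 2 farthest arrays these were 0.34 and 0.23. The second did not hold within both cohorts, with r = 0.48 in cohort 1 and 0.04 in cohort 2, while for Gabrd it was 0.27 and 0.40. The other 2 pairs were negative, Gabra3 with Gabra5 (r = -0.38, rho = -0.42, adjusted permutation p = 0.00728 and 0.00357) and Gabra4 with Gabrb2 (r = -0.30, rho = -0.34, adjusted permutation p = 0.0393 and 0.0164). Within cohorts 1 and 2 the first was -0.34 and -0.50 and the second -0.38 and -0.27, and without the 2 farthest arrays they were -0.44 and -0.28. With all other probe sets, 95% of r were under 0.29 for Gabra3 and 0.33 for Gabrd. A further 5% were under -0.31 for Gabrb2 and -0.26 for Gabra4. Gabra3 with Gabrd, Gabra3 with Gabra4 and Gabra4 with Gabrb2 thus lay within the background of Gabrd, Gabra4 and Gabrb2 respectively, though outside that of the other gene. No pair with Gabrb1 passed, its r lying between -0.01 and 0.17. All pairs come from the same arrays and share their scaling. Each pair rests on the brightest probe set of each gene, and pairs between genes with the other probe sets were not computed. For Gabra3 this was L08492cds_s_at, whose r with X51991_at was -0.15. Whether the genes or only these probe sets vary together was thus not tested.

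**Figure D5:**
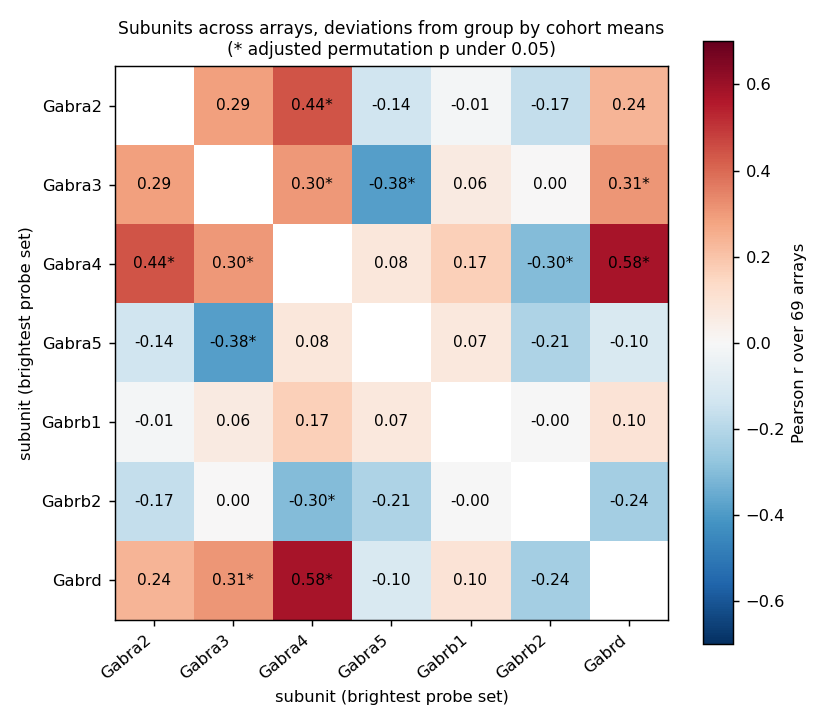
Pearson correlation between the 7 subunits (brightest probe set of each) over 69 arrays, as deviations from the group by cohort means. Colour runs from blue (negative) to red (positive), and asterisks mark the 6 pairs with an adjusted permutation p under 0.05, with Gabra4 and Gabrd highest at 0.58.

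The 2 probe sets of a gene correlated for Gabra4 (r = 0.46, rho = 0.42), Gabrd (0.44 and 0.45) and Gabra5 (0.36 and 0.32), with adjusted permutation p-values for r of 0.00035, 0.000375 and 0.00413 over 5 such pairs. For Gabra5 this came from cohort 2, where r was 0.71, against -0.04 in cohort 1. In Gabra4 r was 0.22 in cohort 1 and 0.74 in cohort 2, and in Gabrd 0.33 and 0.60. For Gabrb2 (r = 0.11, rho = 0.14) and Gabra3 the adjusted permutation p was 0.363 and 0.269. Leaving out the 2 farthest arrays gave 0.42 for Gabra4, 0.41 for Gabrd, 0.36 for Gabra5, 0.29 for Gabrb2 and -0.18 for Gabra3.

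The genes whose pattern over the 69 arrays was most like each subunit, by deviations from the cohort mean over probe sets above the median level, were mostly not receptor genes. For Gabra2 they were Ppp2r2a, a phosphatase regulatory subunit (r = 0.71), and Dlat, a subunit of pyruvate dehydrogenase (0.71). For Gabrb1 they were Rpl21, a ribosomal protein (0.67), and Ppp1cc, a phosphatase catalytic subunit (0.66), and for Gabrb2 Naca (0.72) and Vmp1 (0.71). For Gabra5 they were Suclg1, a citric acid cycle enzyme subunit (0.58), and Cited2 (0.55). For Gabrd they were Pdyn, the precursor of dynorphin (0.57), and Gabra4 (0.55), and for Gabra4 they were Amh (0.56) and Gabrd. Sprr1a (0.57) and Lct (0.53) were most like Gabra3. These values are descriptions, picked as the highest of about 3680 probe sets each.

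Other genes of GABA signalling were read from lists, and none of their probe sets passed the adjusted SD or NES test. At 24SD 9.08% of all probe sets were lower and 5.69% higher at an unadjusted p under 0.05, so that the array as a whole leaned lower. Of the other GABA-A subunits, 8 genes were analysed here. Their median log2 change was -0.17 at 24SD and -0.08 at 72SD, and 1 of the 8 was below 0.05 unadjusted at 24SD, Gabrg1 (-0.18 ± 0.07, SE, adjusted p = 0.190, limma), a gamma subunit. Gabre, the epsilon subunit gene, was at 0.42 ± 0.30 in 24SD and 0.46 ± 0.28 in 72SD (adjusted p = 0.522 and 0.735, limma). Among genes of the inhibitory postsynapse and of receptor traffic, 3 of 11 probe sets were lower at an unadjusted p under 0.05 at 24SD, with Dmd, the dystrophin gene, at -0.28 ± 0.11 and Nsf, a membrane fusion ATPase, at -0.41 ± 0.20 (adjusted p = 0.205 and 0.313, limma). For GABA synthesis, transport and breakdown it was 4 of 9 lower, including the astrocytic GABA transporter Slc6a11 (-0.28 ± 0.10, adjusted p = 0.181, limma) and the vesicular transporter Slc32a1 (-0.17 ± 0.07, adjusted p = 0.235, limma).

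Of the 7 probe sets for GABA-B receptors, 2 were lower at an unadjusted p under 0.05 in 24SD, beside 9.08% of all. Gabbr2 was at -0.27 ± 0.11 (SE, adjusted p = 0.220, limma), and the probe set of Gabbr1 with the smallest SD p was at -0.11 ± 0.07 (adjusted p = 0.435, limma). Among 12 probe sets for chloride and bicarbonate balance, Slc12a2, the chloride importer NKCC1, was at -0.12 ± 0.07 in 24SD and -0.17 ± 0.06 in 72SD (adjusted p = 0.396 and 0.532, limma) and the anion exchanger gene Slc4a3 at -0.16 ± 0.08 and -0.03 ± 0.08. Of 9 probe sets for endogenous ligands and their synthesis, Akr1c14, an enzyme that makes neurosteroids, was at -0.40 ± 0.19 and -0.42 ± 0.18 (adjusted p = 0.318 and 0.620, limma) and Star, which brings cholesterol into mitochondria, at 0.46 ± 0.26 and 0.24 ± 0.24. The median log2 changes of these 6 lists in 24SD were between -0.17 and -0.04, beside -0.03 over all probe sets and -0.02 over the 12 member probe sets.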

How the data were processed

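CA1 RNA of single rats was hybridised to Affymetrix RGU34A arrays. The deposited values are MAS5 signal intensities, which the authors scaled to a common target on each array and which carry no detection calls in the table used here. Gene symbols came from the platform annotation, in which 7006 probe sets have 1 symbol, 308 have several and 1426 have none. No column of per-sample values was left unused.

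Signals were floored at 1 (45 values were 0, none of them of a subunit) and log2-transformed, and no other normalization was applied. Limma 3.58.1 (R 4.3.3) was fitted to 8740 probe sets, leaving out 59 controls, with Benjamini-Hochberg adjustment over all of them and a threshold of 0.05. The SD test used the 53 HC and SD arrays with cohort as a term, the NES test the 21 HC and NES arrays of cohort 1, SD against NES the 37 arrays of cohort 1, and the interaction test group means by cohort. Correlations of deviations from group means were tested with 100000 two-sided permutations over arrays, and differences between probe sets with as many within cohort or treatment group (Python 3.11.15, numpy 2.4.6, scipy 1.17.1; figures with matplotlib 3.10.9). The code was tested on simulated data. Promoters came from RefSeq (GRCr8), and 6 motifs were searched on both strands.

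Every probe set of the 7 genes is named, besides the 2 most similar probe sets of other genes per subunit and, from each pathway list, the 2 genes with the smallest SD p. The members and lists were chosen with earlier results of these data known. Alternatives were quantile normalization, centring on the array median, a floor of 50, a filter on dim probe sets, a robust variance estimate, leaving out the cohort term, each cohort alone, leaving out single arrays, and the ANOVA of the methods. Separate arrays are separate rats per the labels, but cage-mate pairs could not be modelled.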

Additional observations from a re-analysis of the deposited data

Results flagged for a closer look

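A test for single arrays far from the rest of their group was made for the 12 probe sets in 6 of the 8 group by cohort sets (72 in all), and 3 stood out, on 2 arrays. Chance gives about 1 in 20. Gabra2 was lowest on array 71 of 72NES, at 10.32, while the other 5 arrays of that group were between 10.87 and 11.19. X15467cds_at of Gabrb2 was lowest on the same array, at 6.86, with the others between 7.62 and 8.06. This array also had the highest 3-prime to 5-prime ratios of all 69 (1.26 for GAPDH and 1.76 for actin), and the part of RNA quality in its values was not tested. Gabrb1 was highest on HC array 5 of cohort 1, at 12.12, with the other 4 between 11.56 and 11.68.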

How the results depend on the processing

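No subunit probe set passed an adjusted test of SD or NES under any alternative run, except that the ANOVA of the methods with values over 2 SD removed called 1 (X51991_at of Gabra3), against 0 without removal. The cohort difference was called for 7 of 12 probe sets, for 4 of 8 when only probe sets above the median level were kept and for 3 of 6 when the brightest probe set of each gene was kept as well, since fewer were tested. Leaving out HC array 5 of cohort 1 was chosen after seeing the data. Of 892 values of single probe sets under an alternative, 852 kept their sign and their side of the threshold and 40 changed sign. None of those 40 had exceeded its own standard error. The cause of these changes was not tested.

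With each array centred on its median, the 24SD change was 0.00087 for Gabra2, 0.029 for L08496cds_s_at of Gabrd, 0.0073 for rc_AA891476_at and 0.0018 for X15467cds_at of Gabrb2, and 24SD minus 24NES was 0.0011 for both M35162_at of Gabrd and X51992_at of Gabra5. With quantile normalization the 24SD change was 0.0049 for L08496cds_s_at and the cohort difference -0.0013 for Gabrb1. With the cohort term left out, the 24SD change of Gabra2 was 0.049 and 72SD minus 24SD of S55933_i_at was 0.054. In cohort 1 alone the 24SD change was 0.082 for Gabra2 and 0.12 for rc_AA891476_at, the 72SD change 0.14 for Gabra2 and -0.077 for X15467cds_at, and 72SD minus 24SD 0.057 for Gabra2, 0.018 for S55933_i_at and -0.088 for X51991_at. In cohort 2 alone the 24SD change was 0.053 for L08496cds_s_at and 0.14 for X15467cds_at, and 72SD minus 24SD was -0.053 for L08493cds_s_at, -0.0398 for L08496cds_s_at and -0.016 for X15467cds_at. Without 24SD array 30 the 24SD change of rc_AA891476_at was 0.016. Without 72NES array 71, the 72NES change of L08492cds_s_at was 0.053 and 72SD minus 72NES of L08496cds_s_at was -0.025.

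Leaving out each HC array of cohort 1 in turn gave 24NES changes from -0.048 to 0.074 for Gabra2, -0.046 to 0.19 for L08493cds_s_at, -0.078 to 0.20 for L08496cds_s_at and -0.075 to 0.097 for X15467cds_at. It gave 72NES changes from -0.20 to 0.12 for L08492cds_s_at, -0.047 to 0.19 for L08493cds_s_at, -0.13 to 0.15 for L08496cds_s_at and -0.14 to 0.0058 for Gabrb1. The last of these came from leaving out HC array 5. Scaling alternatives kept the median of all probe sets within 0.06 of 0 in each comparison. No paired analysis was possible because the replicate numbers are not shared between groups by the labels. The 5 HC arrays of cohort 1 limit every NES comparison.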
